A study of Malus domestica with 12 samples.

Results

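LOX and IMS1 are 2 apple genes named after enzyme families that can act on precursors of fruit aroma. The role of these genes themselves was not examined here. Each was read by 1 probe of the 133709 non-control probes on the array. The probes were chosen by name. AryANE_v1_00047236 was designed on transcript MDP0000450991 and matched to MD09G1069500 (LOX, chromosome 9), and AryANE_v1_00047318 was designed on MDP0000453295 and matched to MD05G1155100 (IMS1, chromosome 5), both by gene IDs of the GDDH13 apple assembly. The study had itself picked both genes with array results known, so their direction is not independent evidence.

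The tissue was fruit peel of wild-type Granny Smith apple grown at La Morinière in France, picked at early physiological maturity and sampled at harvest, before any cold storage. Superficial scald is a browning of the peel that appears after cold storage, and the groups were named for how much of it fruit of the same harvest later showed. Low scald peel came from 2014 only, from plots 24 and 36 (2014-P24 and 2014-P36). High scald peel came from 2015, plots 24 and 31 (2015-P24 and 2015-P31), and from 2017, plot 31b (2017-P31b). Each peel sample was 1 pool of 20 fruit. Harvest year and scald group therefore cannot be told apart, and fruit maturity beyond the stage label was not measured on the arrays. Peel holds epidermis, cuticle-forming cells and outer cortex, so fewer cells of a type and less RNA per cell cannot be told apart either. Markers of peel tissue were not analysed here.

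Lipoxygenases add oxygen to linoleic and linolenic acids, the polyunsaturated fatty acids of membranes. The hydroperoxides they form are cut into short aldehydes, which are reduced to the alcohols of straight-chain esters, and some lipoxygenases instead feed jasmonate synthesis. 2-Isopropylmalate synthase catalyses the first committed step of leucine synthesis from a valine precursor, and citramalate synthase, an enzyme of the same family known from apple, leads to precursors of branched-chain esters. Esters of both kinds make up much of the scent of a ripening apple.

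The 5 peel samples were co-hybridised in 3 comparisons, C1 (2015-P24 with 2014-P24), C2 (2015-P31 with 2014-P36) and C3 (2017-P31b with 2014-P24). Each comparison was run on 2 arrays with the dyes Cy3 and Cy5 exchanged, which gave 6 arrays and 12 channels. C1 and C3 share 2014-P24 by the labels and lay on one slide, and C2 lay on another. Between 11.0% and 30.9% of the probes were well above background per channel, meaning that spot minus local background was over 2.6 times the SD of the pixels around the spot. The Cy5 channels of C2 were the dimmest, at 11.0% and 13.3%. Ratios from exchanged dyes correlated across probes by 0.56 (C1), 0.274 (C2) and 0.679 (C3), and probes are not independent replicates.

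The normalised level of IMS1 was higher in every high scald channel than in any low scald channel. In C1 its spot read 3909 in 2015-P24 against 91.3 in 2014-P24 with low scald in Cy3, where the local backgrounds were 82 and 24. With the dyes exchanged it read 795 against 264.8, over backgrounds of 24 and 80. Raw intensities of Cy3 and Cy5 are on different scales, so multiples of the local background are given. These multiples still differ between the dyes of a sample and are best read within a dye. In 2015-P24 the IMS1 spot stood at 47.7 times its background in Cy5 and 33.1 times in Cy3. In 2014-P24 it stood at 2.47 to 3.81 times over 4 channels. In 2017-P31b it stood at 7.14 times in Cy5 and 13.3 times in Cy3. In 2015-P31 it stood at 26.9 times in Cy3 but at 3.25 times in Cy5. Its partner 2014-P36 stood at 5.97 times in Cy3 and at 1.54 times in Cy5, the only IMS1 channel of 12 that was not well above background. IMS1 was thus measurable in nearly every channel, but close to background in low scald peel.

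After loess within arrays and quantile scaling between them, the log2 level of IMS1 in 2015-P24 was 9.69 in Cy3 and 10.13 in Cy5. It was 9.81 and 9.23 in 2015-P31, and 8.82 and 8.75 in 2017-P31b. In 2014-P36 it was 7.70 and 7.90, and in the 4 channels of 2014-P24 it ran from 6.87 to 7.00. The order of the mean levels was 2015-P24 (9.91), 2015-P31 (9.52), 2017-P31b (8.79), 2014-P36 (7.80) and 2014-P24 (6.91). The channels of both 2015 samples overlapped, so their order is not settled, whereas the channels of every other pair of neighbours did not overlap. Each step has a C2 sample in it, so the order rests on scaling that includes the dim Cy5 channels of C2. In Cy5, 2015-P31 stood at 3.25 times its background and 2014-P24 in C1 at 3.31 times, yet their levels were 9.23 and 6.89. The level of 7.90 in 2014-P36 came from the channel not well above background. These levels span 2 slides, and the channels of a sample are technical repeats. The 6 high scald channels (8.75 to 10.13) lay above the 6 low scald channels (6.87 to 7.90), which held for 0.227% of all probes.

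**Figure D1:**
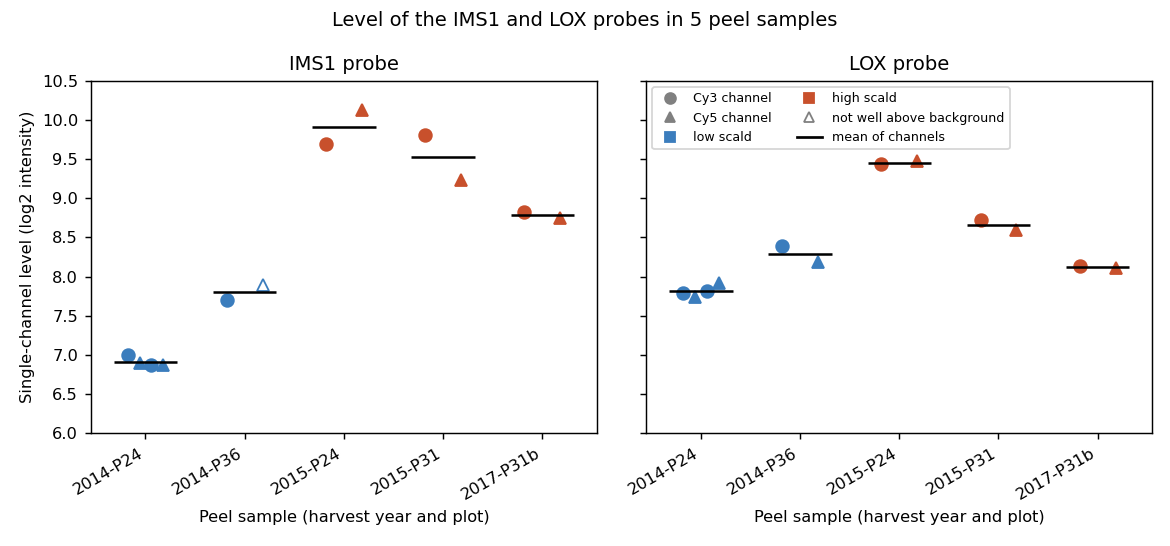
Single-channel log2 level of the IMS1 probe (left) and the LOX probe (right) in each peel sample on the x axis, with circles for Cy3, triangles for Cy5, colours for the scald group, an open symbol for a channel not well above background and a black line for the mean of a sample's channels. IMS1 channels of high scald peel lie between 8.75 and 10.13, above those of low scald peel at 6.87 to 7.90, while the LOX channels of 2017-P31b, at 8.11 and 8.13, lie below those of 2014-P36.

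LOX followed another order. Its spot stood at 30.3 times the local background in Cy5 and 29.5 times in Cy3 in 2015-P24. It stood at 4.98 to 7.79 times in the 4 channels of 2014-P24. In 2017-P31b it stood at 4.82 times in Cy5 and 9.09 times in Cy3. On the C2 arrays it stood at 14.1 times in Cy3 and 2.12 times in Cy5 in 2015-P31, and at 10.8 and 1.95 times in 2014-P36. All 12 LOX channels were well above background.

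The log2 level of LOX was 9.44 in Cy3 and 9.48 in Cy5 in 2015-P24, and 8.73 and 8.60 in 2015-P31. It was 8.40 and 8.19 in 2014-P36, 8.13 and 8.11 in 2017-P31b, and 7.73 to 7.92 in 2014-P24. The mean levels were ordered 2015-P24 (9.46), 2015-P31 (8.66), 2014-P36 (8.29), 2017-P31b (8.12) and 2014-P24 (7.81), and no pair of neighbours overlapped between channels. The smallest step was 0.17, between 2014-P36 and 2017-P31b, which were on different slides. In these levels, scaled between slides, high scald channels (8.11 to 9.48) and low scald channels (7.73 to 8.40) overlapped, because LOX in 2017-P31b lay below LOX in 2014-P36. By multiples of the local background this order held in Cy3 (9.09 against 10.8) but not in Cy5 (4.82 against 1.95). The Cy5 channels of C2 were the dimmest, so the overlap is not settled. Most of the separation of LOX came from 2015-P24, which stood 0.79 above the next sample.

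The level of 2014-P24 was read in C1 and in C3. For IMS1 the C1 value exceeded the C3 value by 0.08, and for LOX the difference of C1 minus C3 was -0.10. The SD of that difference over the 13962 probes well above background in all channels was 0.13. The labels give 5 combinations of year and plot, while the design text counts 6 samples, so 2014-P24 in C1 and in C3 may be 1 sample or separate ones. Whether they were the same RNA extract is not given in the sources used here, and they are treated as 1 peel sample.

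Within arrays, where no scaling between arrays enters, the log2 ratio of IMS1 for high over low scald was 3.13 and 2.80 on the arrays of C1. The C2 arrays gave 1.53 and 1.92, and those of C3 gave 1.88 and 1.95. The averages were 2.96 (7.81-fold), 1.72 (3.30-fold) and 1.92 (3.78-fold). In C2 the low scald peel was well above background on 1 of 2 arrays, so the fold of C2 is less certain than the others. High scald peel thus had the brighter IMS1 signal on 6 of 6 arrays, as did 2.15% of all probes measured on 6 arrays. With a mean log2 ratio of 1 or more added to that condition, 0.0398% of the probes met it.

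For LOX the log2 ratios were 1.69 and 1.70 (C1), 0.21 and 0.54 (C2), and 0.30 and 0.22 (C3). The averages were 1.70 (3.24-fold), 0.37 (1.29-fold) and 0.26 (1.19-fold). LOX was also higher on 6 of 6 arrays, as were the antisense probes of both genes, which were well above background in no channel. Only in C1 did the LOX ratio pass 1, a size reached upwards by 0.177% (C1), 0.0568% (C2) and 0.37% (C3) of the probes. IMS1 passed it in each comparison. Each comparison had 1 peel sample a side, so no p-value is given for it. The 2 arrays of a comparison differed for IMS1 by 0.34, 0.39 and 0.07 in turn, and for LOX by 0.01, 0.33 and 0.08. The LOX ratio of C2 was therefore about the size of the difference between its own arrays.

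**Figure D2:**
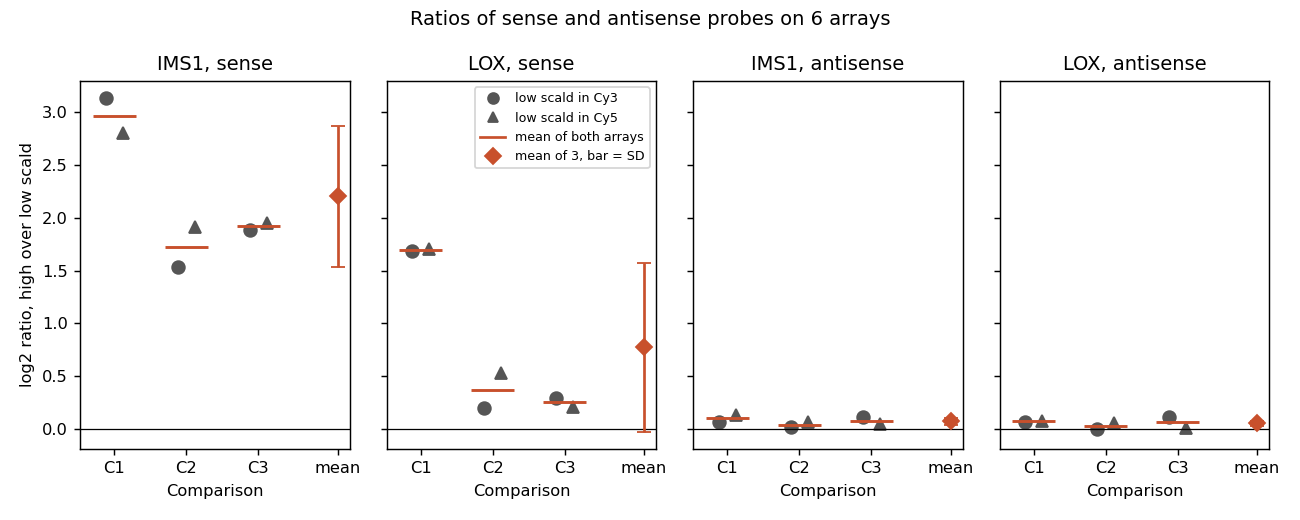
log2 ratio of high over low scald on the y axis for the sense and antisense probes of IMS1 and LOX, with 1 grey symbol per array, a line for the mean of both arrays of C1, C2 and C3, and a diamond with a bar for the mean and SD of the 3 comparisons. IMS1 lies at 2.96, 1.72 and 1.92 and LOX at 1.70, 0.37 and 0.26, while the antisense probes stay within 0.00 to 0.14.

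Taking C1, C2 and C3 as 3 replicates, IMS1 had a mean log2 ratio of 2.20 ± 0.67 (SD, n = 3), or 4.60-fold, with a standard error of 0.29 in the limma fit. Its unadjusted p was 0.00241 and its Benjamini-Hochberg adjusted p over all probes in limma was 0.583. LOX had a mean of 0.77 ± 0.80 (SD, n = 3), or 1.71-fold, with a standard error of 0.35, an unadjusted p of 0.0961 and an adjusted p of 0.960 in the same limma fit. Neither gene passed the adjusted threshold of 0.05, which 1 probe of the array (0.000748%) passed. At an unadjusted p under 0.05 stood 7098 probes (5.31%), of which 3457 (2.59% of all) were higher in high scald. The share of 5.31% is close to what a threshold of 0.05 passes when no probe differs. IMS1 was 1 of the 3457 higher probes and LOX was not among them, which by itself sets neither gene apart. The spread of LOX among the comparisons was as large as its mean, and that of IMS1 was less than its mean. Left without C1, LOX had a mean of 0.31 and IMS1 a mean of 1.82.

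By size alone, the mean ratio of IMS1 was the highest towards high scald among 133674 probes measured in all comparisons, although it was not called by the adjusted test. In C1 it ranked 2 of 133679, in C2, with the channel not well above background included, 3 of 133709 and in C3 15 of 133698. LOX ranked 159 by its mean, and 50, 1958 and 7121 in C1 to C3. Most of these probes were not well above background in a given channel. Among 14046 probes measured on all arrays and well above background in all high scald channels, LOX ranked 118 by its mean. There it ranked 39, 1672 and 3472 in C1 to C3, and IMS1 ranked 2, 3 and 10. The place of IMS1 near the top thus held in each comparison, and that of LOX rested on C1. Over 20 alternatives IMS1 ranked 1 in 14 and 2 in 5. The 5 were with outlier spots kept, in the authors' log2 table, with low scald in Cy5 only, unpaired and without C3. Some of the 14 could not have come out otherwise. The intensity trend, arrays entered singly and the random block kept the mean ratios of the reported fit. The limit to probes well above background only removed other probes. C1 and C3 averaged and slide as a block gave the same estimate, so they are not separate checks of the rank. Plain subtraction of the background put IMS1 at rank 54 of 109125.

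**Figure D3:**
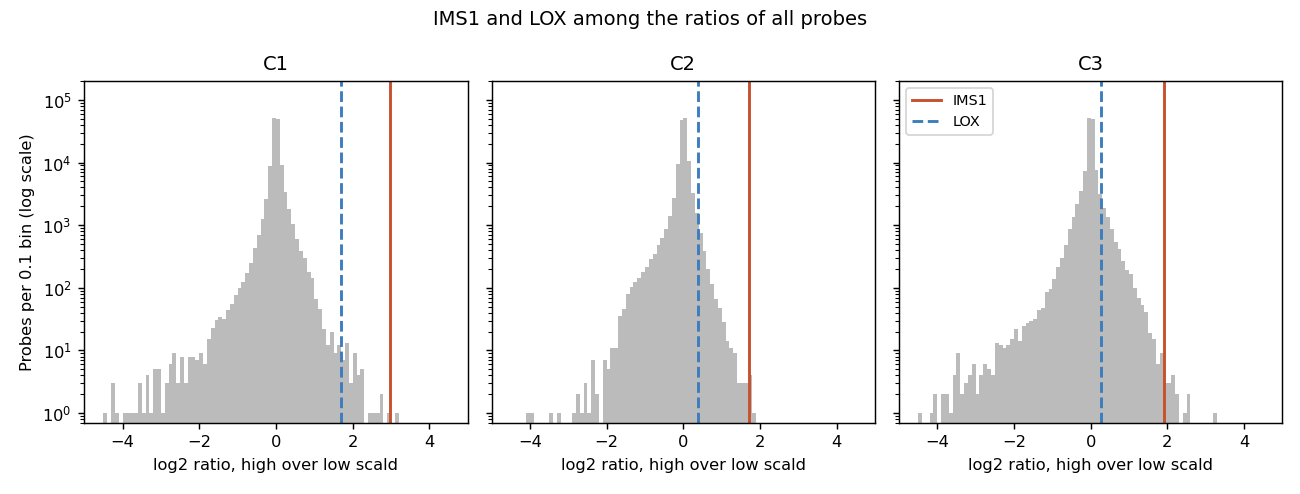
Number of probes on a log scale (y axis) per bin of 0.1 in log2 ratio of high over low scald (x axis) in C1, C2 and C3, with the IMS1 ratio as a solid line and the LOX ratio as a dashed line. IMS1 sits at the upper edge at 2.96, 1.72 and 1.92, while LOX sits at 1.70, 0.37 and 0.26, with 0.0367%, 1.46% and 5.33% of all probes above it. Most probes of the array were not well above background in a given channel. Among 14046 probes well above background in all high scald channels, LOX ranked 39, 1672 and 3472.

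The high scald harvests were set against each other through the comparisons. C3 minus C1, which places 2017-P31b against 2015-P24 on one slide with 2014-P24 on both sides, was -1.05 for IMS1 and -1.44 for LOX on the log2 scale. The signal of 2015-P24 was therefore 2.07 times that of 2017-P31b for IMS1 and 2.71 times for LOX, relative to 2014-P24. The closest arrays of C1 and C3 still differed by 0.84 for IMS1 and 1.39 for LOX, which is more than the differences between exchanged dyes. A larger C1 minus C3 difference was seen in 0.241% of the probes for IMS1 and 0.0778% for LOX. These differences rest on 1 peel sample from each harvest and were not tested.

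Both genes were also lower in C2 than in C1, by a difference of -1.24 for IMS1 and -1.33 for LOX, although both comparisons set 2015 against 2014. These comparisons differ in plots, in slide and in the dim Cy5 channels of C2, whose part was not tested. As levels scaled between slides, the low scald samples differed too, and 2014-P36 lay 0.89 above 2014-P24 for IMS1 and 0.48 above it for LOX. By multiples of the local background this order held in Cy3 but not in Cy5, for both genes. C3 minus C2 was 0.19 for IMS1 and -0.11 for LOX, and the arrays of these comparisons overlapped for both genes. The ratio of IMS1 exceeded that of LOX on each array by 1.09 to 1.74, so the gap between high and low scald was wider for IMS1 than for LOX on all 6 arrays.

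Each transcript also had an antisense probe, printed as 2 spots per array. The antisense probe of IMS1, AryANE_v1_00110329, had a mean log2 ratio of 0.08 (unadjusted p = 0.0486 and adjusted p = 0.941, limma), and that of LOX, AryANE_v1_00110247, had 0.06 (unadjusted p = 0.0865 and adjusted p = 0.958, limma). Both were above 0 on 6 of 6 arrays, as were 1.74% of all antisense probes. Neither was well above background in any of the 12 channels, and their log2 levels lay between 5.87 and 6.11. Antisense transcription was not detectable at this brightness.

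Probes with ratios most like those of each gene were sought among 14045 others that were well above background in all high scald channels, by the root mean square difference over the 6 arrays. This filter reads the high scald channels only and the search fixes the pattern, so what it found is a description. The closest to IMS1 was AryANE_v1_00060673 on MDP0000881409, at 0.25, against a median of 2.29 over all candidates. Its log2 ratios in C1 to C3 were 2.78, 1.77 and 1.62, with a mean of 2.06 that was itself among the highest of all probes. The closest to LOX was AryANE_v1_00052192 on MDP0000613175, at 0.22, against a median of 1.06. Its log2 ratios were 1.38, 0.34 and 0.12. Probes that passed this filter had median log2 ratios of 0.005, 0.0642 and -0.0043 in C1 to C3. Both median distances therefore follow mostly from the size of each gene's own ratio. The files used here do not pair these IDs with gene names.

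The order of the comparisons was followed through other ways of processing the intensities. Over 10 alternatives the IMS1 ratio ran from 2.80 to 3.47 in C1, from 1.53 to 2.50 in C2 and from 1.75 to 2.62 in C3, all above 0. The LOX ratio ran from 1.69 to 2.02 in C1, from 0.21 to 0.58 in C2 and from 0.08 to 0.31 in C3, also all above 0. For both genes C1 stayed highest. Not all of these alternatives could change the order or the sign. Outlier spots kept gave the reported values, and arrays of either dye orientation alone repeat the array ratios given above. The lowest LOX ratio in C3 came from median centring in place of loess, and the highest IMS1 ratios from plain subtraction of the background.

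**Figure D4:**
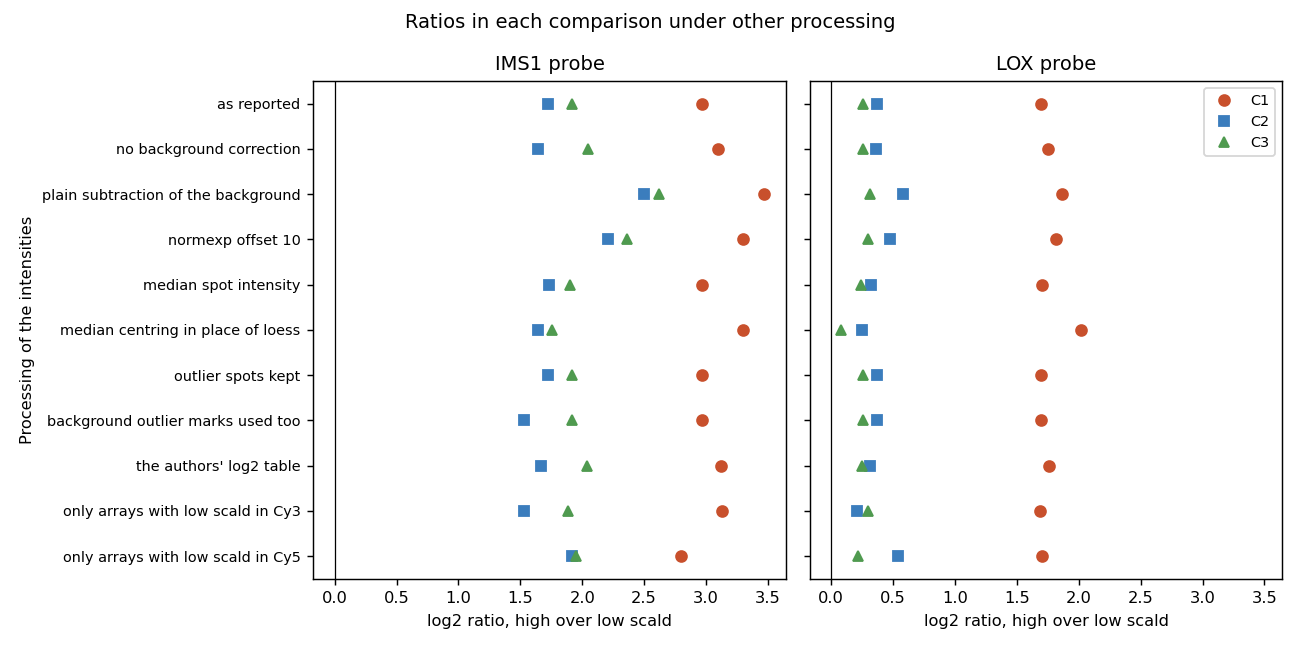
log2 ratio of high over low scald (x axis) of IMS1 and LOX in C1, C2 and C3 under the reported processing and 10 alternatives (y axis). C1 lies to the right of C2 and C3 in every row for both genes, and LOX in C3 comes closest to 0, at 0.08, with median centring.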

How the data were processed

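The authors extracted spot and local background intensity of each channel with Agilent Feature Extraction from 2-colour AryANE_v2 arrays. The deposited processed signal was taken as the spot intensity, and it had no background subtracted. Log2 values after the authors' lowess, 1 per probe and channel, were deposited too and served here as an alternative. Each array held 180880 spots, 4854 of them controls. Intensities were background-corrected by normexp (offset 50) and normalised by loess (span 0.3, 4 iterations) in limma 3.58.1 under R 4.3.3, with control and outlier spots at weight 0. Dyes were taken from the labels, and each ratio was signed so that high scald is the numerator. Repeated spots were averaged, then both arrays of each comparison. An intercept-only lmFit on the 3 ratios was moderated by eBayes (1.59 prior degrees of freedom), two-sided, with Benjamini-Hochberg adjustment over 133709 probes. Single-channel levels came from Aquantile. Precision is limited by the 3 ratios, of which C1 and C3 share 2014-P24. P-values cover the spread among these pools. The pairing of low and high scald is that of the hybridisation, so each ratio is blocked by array and slide. The calculation was tested on simulated data. The members and lists were chosen with earlier results of these data known. Genes named were both members, their antisense probes and the probes of closest ratios. Lists of aroma pathway genes were not used here, since probes could not be linked to their annotation. The sources differ on plots: the label of the 2017 sample is plot 31b, while the array methods call it R11, and the plant material paragraph exchanges plots 31 and 36 between 2014 and 2015, which concerns both samples of C2. Labels were followed.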

Additional observations from a re-analysis of the deposited data

How the results depend on the processing

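IMS1 and LOX kept a ratio above 0 under all 20 alternatives, with means of 1.82 to 2.86 for IMS1 (adjusted p 0.0163 to 1) and 0.31 to 1.03 for LOX (adjusted p 0.452 to 1). Not all of these could move the ratio. The limit to probes well above background, the intensity trend, separate arrays and the random block left it at 2.20 and 0.77 by construction. Outlier spots kept left it there too, since neither probe had outlier spots. C1 and C3 averaged and slide as a block gave the same estimate, 2.08 for IMS1 and 0.67 for LOX. IMS1 passed the threshold under 2 of the 20 alternatives, which enter the 6 arrays singly and so count technical dye swaps as replicates. Its ratio was 2.20 in each, with an adjusted p of 0.0171 for separate arrays and 0.0163 with a random block for the comparison (consensus correlation -0.05). LOX passed under none. The count of called probes, 1 as reported, was 432 with separate arrays, 457 with the random block, 20 with a normexp offset of 10 and 10 with an intensity trend. It was 0 with plain subtraction, median centring, outlier spots kept, arrays of either dye orientation alone, C1 and C3 averaged, and slide as a block. It was also 0 when spots with background outlier marks were left out, an alternative chosen after seeing the data, which removed 1 IMS1 array of C2. With no replicate block, setting 3 high against 2 low scald samples unpaired, it was 0, and the ratios were 2.05 for IMS1 and 0.69 for LOX. Leaving out each comparison gave 0 to 0 called probes, 1.82 to 2.44 for IMS1 and 0.31 to 1.03 for LOX, the lowest without C1. Counts of pathway lists were not run.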
